A study of Homo sapiens with 3 samples.

Results

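The RBPJ peaks described here lie inside protein-coding genes but away from their promoters. They are the peaks whose summit was more than 1000 bp from every transcription start site (TSS) of a protein-coding transcript, within a protein-coding gene and outside every exon of its protein-coding transcripts. By that rule 424 of 2926 RBPJ peaks (14.5%) were intronic. The remaining peaks comprised 1876 within 1000 bp of a TSS (promoter peaks), 596 between genes (intergenic peaks) and 30 in exons. The study used chromatin immunoprecipitation followed by sequencing (ChIP-seq) to ask where RBPJ, also called CBF1, and L3MBTL3 meet on chromatin. It used MDA-MB-231, an established human line of basal-like breast cancer with mesenchymal features and no hormone receptors, grown without any treatment named in the labels. One library came from an antibody against RBPJ and 1 from an antibody against L3MBTL3. A library of input DNA was not used here.

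RBPJ is the DNA-binding protein of the Notch pathway. When a Notch receptor is cleaved, its intracellular part joins RBPJ and a Mastermind coactivator and switches genes on, and without that signal RBPJ can bind corepressors and hold the same genes off. L3MBTL3 is a methyl-lysine reader that can bind RBPJ. Introns often hold enhancers, and in cells of this kind many enhancers are bound by AP-1, the FOS and JUN dimers, by TEAD factors, which carry the YAP and TAZ coactivators to DNA, and by RUNX factors.

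Peak positions, fold enrichments and q values are the authors' own. The fold is the enrichment at the summit over the peak caller's local background, and it was used only to rank and describe peaks within a list. The labels give an alignment depth of 30 to 40 M (mega) reads per library, and the number of reads behind a single peak is unknown. Neither antibody had a second library, so replicate error is unknown. Every interval and test below is over peaks of 1 library, covers counting error only and does not stand for repeated experiments. Peak lists hold no expression values, so the identity of the cell line could not be checked against marker genes.

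The words of 4 factor families were sought on both strands within 100 bp of each summit, a window of 201 bp. The RBPJ core word was TGGGAA, and its high-affinity form, which contains the core, was CGTGGGAA or TGTGGGAA. The AP-1 word was TGACTCA or TGAGTCA, the TEAD word GGAATG and the RUNX word TGTGGTT. The RBPJ and TEAD words share letters and can lie over each other on 1 strand, as in TGGGAATG. A word is a match of letters, not a measured binding site. The sequences below, from GRCh37 (hg19) on the plus strand, show how these words lie at the intronic summits, and all were cut so that they hold no exon of a protein-coding transcript.

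The first set shows the high-affinity RBPJ word, in capitals, at the strongest intronic peak, in ZNF675, and at peaks in 3 genes of the Notch pathway. In PRPSAP1, the strongest peak with 2 copies, both copies abut on the minus strand, and a TEAD word on the same strand lies across their junction.
ZNF675 (chr19:23709390-23709432): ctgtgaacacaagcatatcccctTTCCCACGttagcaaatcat
HES1 (chr3:193854934-193854984): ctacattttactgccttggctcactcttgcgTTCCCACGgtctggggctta
NOTCH1 (chr9:139439034-139439077): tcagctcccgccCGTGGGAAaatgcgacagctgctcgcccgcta
NOTCH4 (chr6:32164246-32164352): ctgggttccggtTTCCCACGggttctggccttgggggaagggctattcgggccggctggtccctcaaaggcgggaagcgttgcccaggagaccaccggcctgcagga
PRPSAP1 (chr17:74366925-74367045): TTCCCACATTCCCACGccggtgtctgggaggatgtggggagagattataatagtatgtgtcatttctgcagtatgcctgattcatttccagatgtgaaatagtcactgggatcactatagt

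The second set shows the words of different families together in 1 window, in capitals. SSH1 had the strongest peak with RBPJ core and AP-1 words (2 RBPJ copies and 1 AP-1 copy), and SLC1A7 the strongest with AP-1 and TEAD words (1 AP-1 copy after 2 TEAD copies). In AHDC1 a TEAD word overlapped the RBPJ core word, and in ITPR1 a TEAD word ran into an AP-1 word. UQCC1 held all 4 families, in the order TEAD, AP-1, RBPJ core and RUNX.
SSH1 (chr12:109248254-109248396): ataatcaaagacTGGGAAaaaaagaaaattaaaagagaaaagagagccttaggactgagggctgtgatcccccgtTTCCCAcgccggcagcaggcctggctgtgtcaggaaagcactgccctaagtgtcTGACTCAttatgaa
SLC1A7 (chr1:53578220-53578340): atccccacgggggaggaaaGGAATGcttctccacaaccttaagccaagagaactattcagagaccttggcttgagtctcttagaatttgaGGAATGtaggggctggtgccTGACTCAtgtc
AHDC1 (chr1:27866978-27867052): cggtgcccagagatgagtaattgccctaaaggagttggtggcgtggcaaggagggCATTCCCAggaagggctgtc
ITPR1 (chr3:4783526-4783579): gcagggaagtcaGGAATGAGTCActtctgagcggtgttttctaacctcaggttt
UQCC1 (chr20:33900355-33900458): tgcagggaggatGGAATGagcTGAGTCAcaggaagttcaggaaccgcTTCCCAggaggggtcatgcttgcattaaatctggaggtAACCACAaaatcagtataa

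The third set shows peaks without an AP-1 or TEAD word. ECE1 had the strongest peak with the RUNX word (capitals), EXD3 the strongest that overlapped an L3MBTL3 peak (3 RBPJ core words in capitals, the middle one in the high-affinity form), and CRADD the strongest with no word of the 4 families.
ECE1 (chr1:21660913-21661005): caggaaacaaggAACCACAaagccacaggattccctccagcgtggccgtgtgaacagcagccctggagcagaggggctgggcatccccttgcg
EXD3 (chr9:140210564-140210687): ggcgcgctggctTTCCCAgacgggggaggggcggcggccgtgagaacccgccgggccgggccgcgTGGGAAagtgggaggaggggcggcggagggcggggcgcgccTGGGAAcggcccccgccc
CRADD (chr12:94093114-94093214): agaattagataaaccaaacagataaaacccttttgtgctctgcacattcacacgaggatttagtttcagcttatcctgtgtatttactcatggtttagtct

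Introns away from promoters took 14.5% of the RBPJ peaks but 41.4% of the genome's sequenced bases fit the same rule (1174 of 2836 Mb). Within that space the peaks lay closer to protein-coding TSS, of the host or of a neighbouring gene, than the bases did. Of the 424, 118 were 1 to 5 kb from the nearest TSS (27.8%, 95% Wilson interval 23.8 to 32.3), where 12.4% of the bases that fit the rule lie. Only 27 were more than 100 kb away (6.37%, 4.41 to 9.11, against 19.4% of the bases), the farthest 617 kb from a TSS in EYS. The median distance was 13.9 kb (quartiles 4.27 and 37.4 kb), and the nearest TSS belonged to the host gene for 353 peaks (83.3%). These shares are descriptions, and neighbouring peaks are not independent.

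The first intron of the host held 129 peaks (30.4%, 26.2 to 35.0), against 24.7% of the bases. The second intron held 81 (19.1%, 15.6 to 23.1, against 15.6%), and the third or a later intron held 193 (45.5%, 40.8 to 50.3, against 56.0%). The other 21 lay in genes but outside every intron of a transcript typed as protein-coding. The first-intron share depends on which transcript numbers the introns: with the lowest number over all transcripts of the host it was 39.9%. For peaks more than 2000 bp from every TSS it was 27.1% (22.8 to 31.8). The share of bases was not recounted for either setting. The introns were long, with a median width of 18.6 kb (quartiles 6.54 and 53.8 kb).

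**Figure D1:**
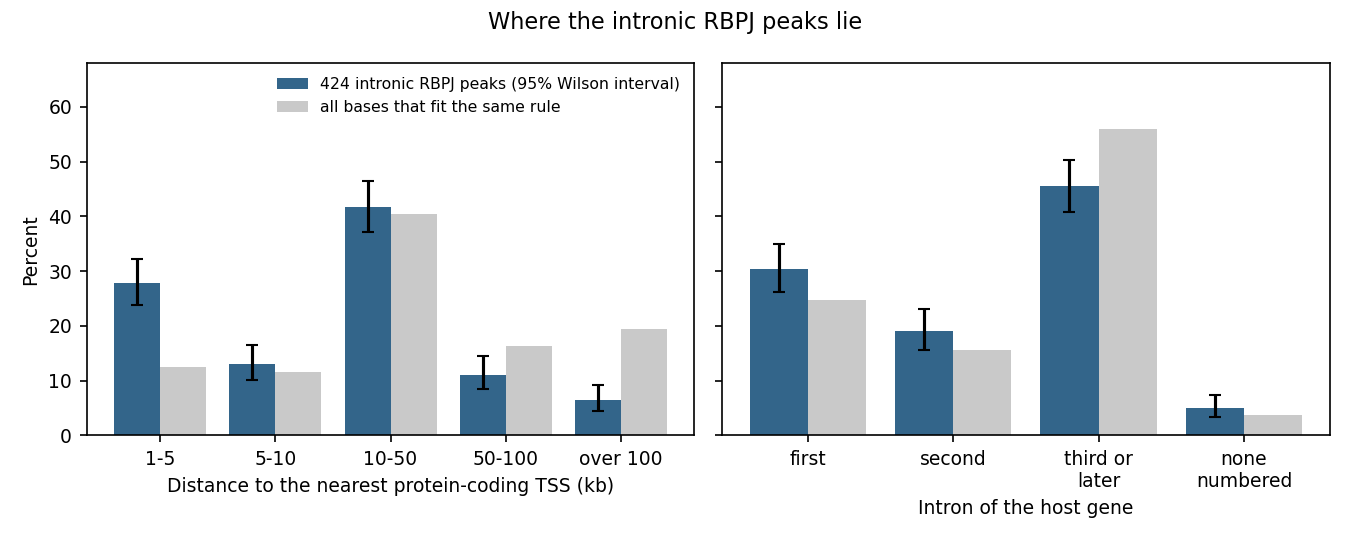
Percent of the 424 intronic RBPJ peaks (blue, with 95% Wilson intervals) and of all bases that fit the same rule (grey), by distance to the nearest protein-coding TSS in kb (left) and by intron of the host gene (right). Peaks were more frequent than bases at 1 to 5 kb (27.8% against 12.4%) and less frequent beyond 100 kb (6.37% against 19.4%).

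The label "away from promoters" was checked against the other transcripts of the annotation. For 89 of the 424 (20.99%, 17.4 to 25.1) the summit was within 1000 bp of the TSS of a transcript not typed as protein-coding, and for 29 of these (6.84% of all) it was a TSS of a non-coding gene. The rule looks at summits, and 13 of the peaks (3.07%) touched a protein-coding exon. The members nearest to the distance limit of 1000 bp were 1017 bp from HES1 (fold 6.87), 1028 bp from PPM1H (6.64) and 1032 bp from GPSM3 (5.68). The peaks just short of the limit, and so left out, were 999 bp (fold 4.37) and 941 bp (4.56) from PLEC and 870 bp from SGMS1 (5.41).

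Intronic peaks covered the range of strength of the RBPJ list. Their median fold was 5.21 (quartiles 4.60 and 5.99, range 3.04 to 21.3), beside 5.10 for intergenic and 5.08 for promoter peaks, and these medians were not tested. A -log10 q of at least 5 was reached by 116 intronic peaks (27.4%), by 26.5% of intergenic and by 19.1% of promoter peaks. Introns, with 14.5% of all RBPJ peaks, supplied 9 of the 20 strongest, 14 of the 50 strongest and 29 of the 100 strongest. Intergenic peaks, 20.4% of all, supplied 5, 17 and 31 of the same sets. Fold varied little with position, with medians of 5.10 at 1 to 5 kb from a TSS, 5.23 at 5 to 50 kb and 5.26 beyond 50 kb.

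The strongest of all 2926 RBPJ peaks was intronic, with a fold of 21.3 (-log10 q of 52.9, chr19:23709146-23709682). It lay in ZNF675, which encodes a zinc finger protein, in an intron of a transcript other than the canonical one, 11 bp from an exon and 131 kb from any protein-coding TSS, the nearest being that of ZNF91. Its single RBPJ copy was CGTGGGAA, 13 to 20 bp from the summit, and its window held no AP-1, TEAD or RUNX word. The next was in intron 8 of SH3RF3, a ubiquitin ligase, with a fold of 12.9, 295 kb from a TSS, and it also held only the high-affinity RBPJ word. A peak in ECE1, which encodes the enzyme that matures endothelin, reached 12.5. It lay in the first intron of a transcript other than the canonical one. ARHGAP26, which encodes a GTPase-activating protein, followed with 11.4 in intron 11. Both the ECE1 and the ARHGAP26 window held a RUNX word and none of the other 3 families.

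Of the other peaks among the 15 strongest, 4 held the RBPJ core word without the high-affinity form, namely PTPRE (fold 10.95), a receptor-type tyrosine phosphatase, HSF2BP (10.8), a meiotic recombination factor, whose window also held a TEAD word, MCL1 (9.40), an anti-apoptotic BCL2 relative, and TRIM67 (9.07). High-affinity words lay in BAIAP2 (10.5), an adaptor of the actin cytoskeleton, and in EVC (10.5), a component of the primary cilium. They also lay in EXD3 (9.74), in SORBS3 (8.94), an adhesion adaptor, and in PRPSAP1 (8.57). Of these windows, those in BAIAP2, SORBS3 and PRPSAP1 also held a TEAD word, and that in SORBS3 a RUNX word. CRADD (10.3), a death-domain adaptor, and ARID1B (9.58), a subunit of SWI/SNF chromatin remodelling complexes, held no word of the 4 families. The MCL1 and PRPSAP1 summits lay in introns of transcripts other than the canonical one. None of these 15 windows held an AP-1 word, although 115 of all 424 did (27.1%). Among the strongest 106 the AP-1 word was in 29 (27.4%), so its absence was limited to this short list.

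The words set the intronic peaks apart from the sequence beside them. Flanks were windows of the same length centred 2 kb to either side of each intronic summit (848 windows). Word shares were compared by a two-sided Fisher's exact test with Benjamini-Hochberg adjustment over 36 tests (12 words, each against flanks, intergenic and promoter peaks). The test takes all windows as independent. It does not match a peak to its own flanks, and it ignores that some neighbouring peaks lie close together. Of the 12 words, 5 were more frequent and 1 less frequent in intronic peaks than in flanks. Against intergenic peaks the counts were 1 and 1, and against promoter peaks 5 and 1.

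The RBPJ core word was in 197 of 424 intronic windows (46.5%, 41.8 to 51.2), beside 29.5% of all RBPJ windows. It was in 17.3% of flanks (odds ratio 4.14, 95% Woolf interval 3.19 to 5.37, with a Fisher's exact adjusted p of 4.15e-26) and 21.5% of promoter peaks (3.17, 2.54 to 3.95, adjusted p = 3.26e-23). Intergenic peaks held it in 42.6%, and the difference did not pass the test (1.17, 0.910 to 1.501, exact adjusted p = 0.382). The high-affinity form was in 59 intronic windows (13.9%, 10.9 to 17.5; 8.51% of all RBPJ windows), in 2.005% of flanks, 13.1% of intergenic and 5.60% of promoter peaks. Its odds ratio was 7.90 (4.54 to 13.7) against flanks, with a Fisher's exact adjusted p of 1.95e-15, and 2.73 (1.94 to 3.82) against promoter peaks, with an adjusted p of 1.28e-07. CGTGGGAA was in 29 and TGTGGGAA in 32 of the intronic windows. More than 1 high-affinity copy occurred in 4 windows, those in PRPSAP1, CFLAR, ANKH and CPNE5.

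The AP-1 word was in 115 intronic windows (27.1%, 23.1 to 31.5; 11.2% of all RBPJ windows), in 5.19% of flanks and in 3.78% of promoter peaks. The odds ratios were 6.80 (4.69 to 9.86) against flanks, with a Fisher's exact adjusted p of 5.32e-26, and 9.46 (6.87 to 13.0) against promoter peaks, with an adjusted p of 5.002e-42. Intergenic peaks held it in 22.3%, and that difference did not pass (1.30, 0.971 to 1.73, exact adjusted p = 0.168).

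The TEAD word was in 123 intronic windows (29.0%, 24.9 to 33.5; 13.7% of all RBPJ windows), in 9.55% of flanks (odds ratio 3.87, 2.84 to 5.28, with an adjusted p of 3.30e-17 by Fisher's exact test) and in 7.46% of promoter peaks (5.07, 3.86 to 6.65, adjusted p = 1.45e-28). It was the 1 word that passed as more frequent than in intergenic peaks, where 21.6% held it (1.48, 1.11 to 1.97, exact adjusted p = 0.0222). That call was lost when windows of repeated sequence were left out (odds ratio 1.36, exact adjusted p = 0.120). Repeated sequence made up 11.2% of intergenic and 2.12% of intronic windows. Among peaks poor in CpG, as described below, 30.7% of 365 intronic and 29.7% of 387 intergenic windows held the TEAD word. In CpG-rich peaks it was in 11 of 59 intronic (18.6%) and 14 of 209 intergenic windows (6.70%). These splits were not tested.

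The RUNX word was rarer, in 27 intronic windows (6.37%, 4.41 to 9.11; 3.38% of all RBPJ windows). Flanks held it in 4.25% (odds ratio 1.53, 0.918 to 2.56, with an adjusted p of 0.184 by Fisher's exact test) and intergenic peaks in 6.54%, and neither difference passed. Promoter peaks held it in 1.65% (4.05, 2.39 to 6.86, exact adjusted p = 2.54e-06).

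**Figure D2:**
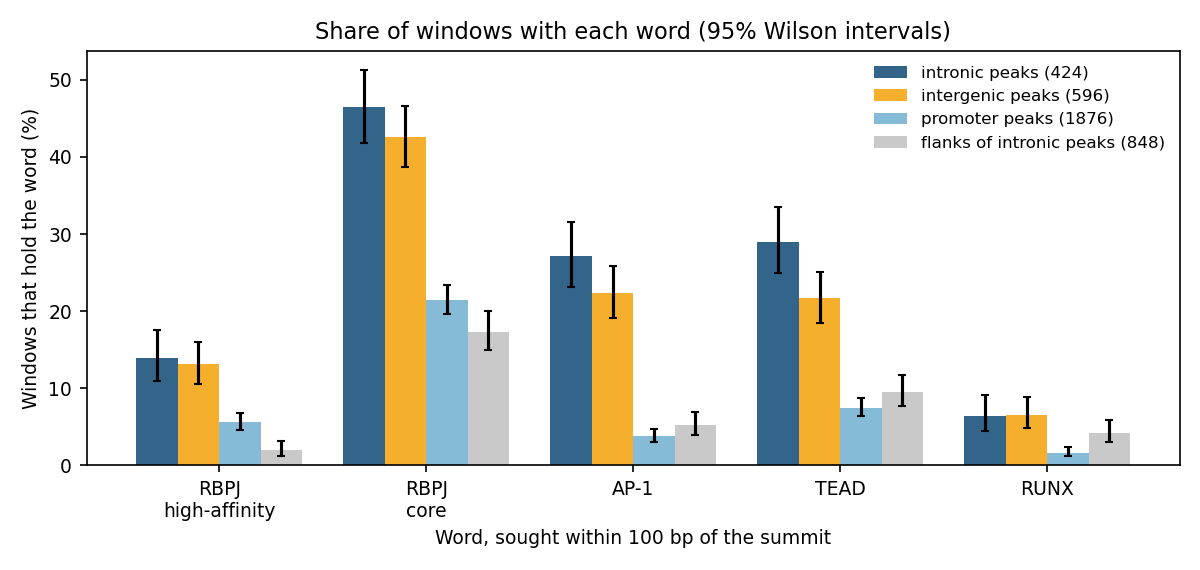
Percent of windows that hold each word within 100 bp of the centre, for intronic, intergenic and promoter RBPJ peaks and for the flanks of intronic peaks, with 95% Wilson intervals. Intronic and intergenic bars differ most for TEAD (29.0% against 21.6%). Of the words shown, TEAD alone passed that comparison, a call that was lost without repeated sequence. For AP-1 the intronic share (27.1%) stands above promoter peaks (3.78%) and flanks (5.19%).

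Of the 7 other words, the NF-kB word was in 47 intronic windows (11.1%; 9.95% of all RBPJ windows), against 5.66% of flanks (odds ratio 2.08, 1.36 to 3.16, with an adjusted p of 0.00305 by Fisher's exact test). It overlapped an RBPJ core word in 5 of the 47. The CEBP word TTGCNNAA was less frequent in intronic windows (4.01%; 3.14% of all RBPJ windows) than in flanks (8.37%; 0.457, 0.266 to 0.786, exact adjusted p = 0.00986). Where windows were limited to 50 to 65% GC, neither passed. The NF-kB odds ratio there was 1.85 (exact adjusted p = 0.111), close to its value over all windows, and the CEBP odds ratio moved to 0.811 (exact adjusted p = 0.833). The ETS word CCGGAAGT was in 1 intronic window (0.236%; 3.25% of all RBPJ windows), against 2.01% of intergenic (Fisher's exact adjusted p = 0.0282) and 4.37% of promoter peaks (adjusted p = 3.37e-06). The ETS call against intergenic peaks was lost under 6 of 8 alternatives, among them leaving out windows of repeated sequence (odds ratio 0.180, exact adjusted p = 0.180), and the exact adjusted p ranged from 0.00144 to 0.741 over all alternatives run. The E-box CACGTG, the CRE TGACGTCA, the FOX word TGTTTAC and the CTCF word passed in none of the 3 comparisons, and 22, 3, 7 and 2 intronic windows held them (6.87%, 1.57%, 1.33% and 0.444% of all RBPJ windows).

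Base composition differed between the classes. The median GC content of the windows was 57.5% in introns, 60.2% between genes, 71.6% at promoters and 50.2% in flanks. In windows of 50 to 65% GC, a limit chosen after seeing the data, the differences of the RBPJ and RUNX words from promoter peaks did not pass the test, while those of AP-1 and TEAD did. There the high-affinity word was in 12.6% of 214 intronic and 12.2% of promoter windows (odds ratio 1.04, 0.622 to 1.74, with an adjusted p of 1.00 by Fisher's exact test), and the core word in 44.9% and 37.1% (1.38, 0.976 to 1.95, adjusted p = 0.252). For AP-1 the difference remained, with 32.2% against 7.93% (5.52, 3.42 to 8.93, exact adjusted p = 5.66e-12), as it did for TEAD, with 32.2% against 13.6% (3.02, 1.99 to 4.59, adjusted p = 1.43e-06). The RUNX word was in 3.74% against 4.82% (0.768, 0.325 to 1.81, exact adjusted p = 0.833). Against flanks in the same GC range, both RBPJ words, AP-1 and TEAD kept their calls. Among peaks poor in CpG, as described below, the AP-1 shares of intronic and promoter windows were, however, close.

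The RBPJ words lay nearest to the summits. Of the 59 windows with the high-affinity word, 31 (52.5%) had a copy within 25 bp of the summit, against 2 of the 17 flank windows that held it (11.8% within 25 bp of the flank's centre). For the core word the shares were 44.2% and 21.8%. AP-1 words were also most frequent at the summit, at 8.73% and 10.8% of peaks in the 50-bp bins on either side of it. Among windows that held the word, however, the share with a copy within 25 bp was 36.5% for AP-1 (flanks 36.4%) and 31.7% for TEAD (flanks 32.1%), and the median distances were 34.0 bp for AP-1 (flanks 40.5 bp) and 37.5 bp for TEAD (flanks 38.5 bp). For RUNX it was 5 of 27 (18.5%, flanks 36.1%).

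**Figure D3:**
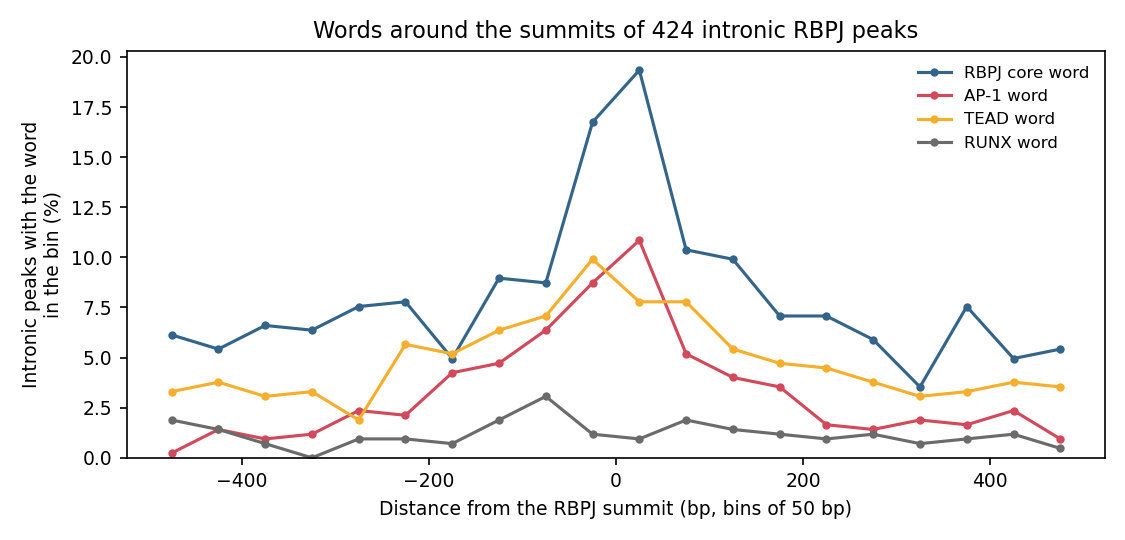
Percent of the 424 intronic RBPJ peaks with each word in bins of 50 bp, against the distance of the bin from the summit in bp (negative distances towards lower chromosome positions). The RBPJ core word reached 19.3% in the bin just above the summit against 3.54% to 9.91% in bins beyond 100 bp, and AP-1 reached 10.8% in the same bin.

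One window often held several families. None of the 4 was present in 113 intronic windows (26.7%), 1 in 183 (43.2%), 2 in 106 (25%), 3 in 21 (4.95%) and all 4 in 1, in UQCC1. Promoter windows held none in 70.3% and flanks in 69.5%, while intergenic windows held none in 37.2%. The most frequent makeup after none was the RBPJ core alone (91 windows), followed by AP-1 alone and the RBPJ core with TEAD (48 each), TEAD alone (38), and the RBPJ core with AP-1 (31).

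The pairs occurred about as often as the separate shares would give. These counts are over sites of 1 library and are descriptions, with copies counted as a pair only where they did not overlap. The product of the shares makes no such exclusion. With overlapping copies counted, the RBPJ core and TEAD words met in 66 windows and AP-1 and TEAD in 29, and the other pairs were unchanged. The RBPJ core and AP-1 words met in 47 windows, where the product of their shares gives 53.4. The RBPJ core and TEAD words met in 58 (product 57.1), and in 8 more only as overlapping copies. AP-1 and TEAD met in 27 (6.37%, 4.41 to 9.11; product 33.4), beside 2.32% of all RBPJ windows. RUNX met the RBPJ core in 16 (product 12.5), AP-1 in 8 (7.32) and TEAD in 9 (7.83). Thus an AP-1 word was in 23.9% of intronic windows with an RBPJ core word and in 30.0% of those without one. Between genes the RBPJ core and AP-1 words met in 71 windows (product 56.7). The pair's count over the product was 0.880 in introns and 1.25 between genes, and this difference was not tested.

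**Figure D4:**
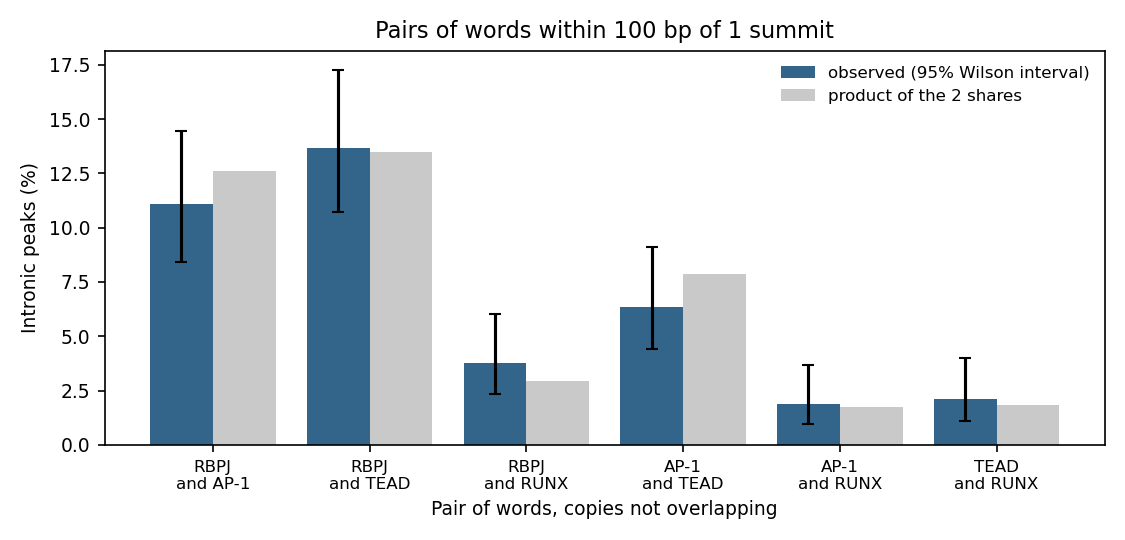
Percent of the 424 intronic RBPJ windows that hold both words of a pair as non-overlapping copies (blue, with 95% Wilson intervals) beside the product of the separate shares (grey). For all 6 pairs the product lies inside the interval of the observed share. The product also covers windows where the copies only overlap, which the observed share leaves out.

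Where 2 families met, the copies were often close. The median gap between the nearest copies was 33.0 bp for the RBPJ core and AP-1, 43.5 bp for the RBPJ core and TEAD, and 27.0 bp for AP-1 and TEAD, with 16, 18 and 11 of these windows at 20 bp or less. An RBPJ core word overlapped a TEAD word in 18 intronic windows (4.25%), as in AHDC1 above, against 1.30% of flanks, 4.70% of intergenic and 0.853% of promoter windows. AP-1 and TEAD words overlapped in 2 intronic windows.

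The 10 strongest peaks with at least 3 families lay in SORBS3 (fold 8.94), PITPNC1 (6.58), STRN4 (6.24), ADAMTS12 (6.08), DYNC1H1 (5.72), FOXK1 (5.63), DYNLRB1 (5.58), ATXN7L1 (5.34), CCER1 (5.23) and SSUH2 (5.03). All 10 held the RBPJ core word, 7 with AP-1 and 8 with TEAD. DYNC1H1 and DYNLRB1 both encode subunits of cytoplasmic dynein, the motor that walks towards the centre of the cell, and FOXK1 and ADAMTS12 encode a forkhead transcription factor and an extracellular protease. The single window with all 4 families, in UQCC1, an assembly factor of mitochondrial complex III, had a fold of 5.002.

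Median folds were higher with than without the RBPJ and RUNX words and not with AP-1 or TEAD, a description without a test. Windows with the high-affinity word had a median fold of 5.58 against 5.14 without it, and the core word 5.33 against 5.08. With AP-1 the median was 5.08 against 5.23 without, and with TEAD 5.14 against 5.25. The 27 windows with the RUNX word had a median of 5.63, against 5.20 without it. With the intronic peaks split by fold into 4 groups of 106, from the strongest to the weakest, the core word was in 53.8%, 51.9%, 45.3% and 34.9%. AP-1 was in 27.4%, 24.5%, 22.6% and 34.0% of the same groups. The number of families did not order the folds, with medians of 5.09, 5.16, 5.49 and 5.01 for 0 to 3 families.

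Position within the gene made little difference to the words. The RBPJ core word was in 50.4% of first-intron, 42.0% of second-intron and 45.6% of later peaks, and AP-1 in 28.7%, 25.9% and 24.9%, with overlapping Wilson intervals. Beyond 50 kb from a TSS the core word was in 39.2% (28.9 to 50.6), and at 1 to 5 kb in 50.8% (41.9 to 59.7), while median GC content went from 63.7% near to 50.5% far from a TSS.

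L3MBTL3 was seldom found at these peaks. Its own list was short, with 444 peaks, of which 24 fit the intronic rule (5.41%) and 367 were promoter peaks. The shares below are of RBPJ peaks, and the shorter list limits how many of them can be shared. Only 5 of 424 overlapped an L3MBTL3 peak by at least 1 bp (1.18%, 0.505 to 2.73), beside 4.37% of all RBPJ peaks. For promoter peaks it was 106 of 1876 (5.65%), a difference that passed the test (odds ratio 0.199, 0.0808 to 0.492, with an adjusted p of 2.99e-05 by Fisher's exact test). For intergenic peaks it was 17 of 596 (2.85%), and that difference did not pass (0.406, 0.149 to 1.11, exact adjusted p = 0.0815). Without the 89 peaks near a TSS of another transcript type, the intronic share was 2 of 335 (0.597%), and the difference from intergenic peaks then passed (0.205, 0.0470 to 0.891, exact adjusted p = 0.0267).

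CpG content moved with this difference. Summits counted as CpG-rich if the surrounding 1 kb had a ratio of observed to expected CpG above 0.6, which held for 59 intronic (13.9%), 35.1% of intergenic and 94.5% of promoter peaks. Among CpG-rich peaks the L3MBTL3 overlap was 4 of 59 intronic (6.78%), 7.18% of intergenic and 5.98% of promoter peaks. In that comparison, added after seeing the data, the odds ratio against promoter peaks was 1.14 (0.407 to 3.22, Fisher's exact adjusted p = 1.00), an interval that still allows more than a 2-fold difference in either direction. Among the other 365 intronic peaks 1 overlapped L3MBTL3 (0.274%), and 0 of 103 promoter peaks did, which allows a share of up to 2.91%. AP-1 words went the other way, in 5 of 59 CpG-rich intronic windows (8.47%) and 110 of 365 others (30.1%). At promoters they were in 42 of 1773 CpG-rich windows (2.37%) and 29 of 103 others (28.2%, 20.4 to 37.5). Outside CpG-rich sequence the AP-1 shares of intronic and promoter windows were thus close, and these splits were not tested. RUNX words were in 0 of the 59 CpG-rich intronic windows, which allows up to 5.08%.

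The 5 shared peaks had GC contents of 67.2% to 82.6%, and 4 of them held no word of the 4 families. The strongest (RBPJ fold 9.74, L3MBTL3 fold 8.01, summits 28 bp apart, chr9:140210487-140210805) lay in intron 19 of 21 of EXD3, 13.9 kb from the TSS of NRARP, a feedback inhibitor induced by Notch, and is the 1 with RBPJ words. In CASZ1, a zinc finger transcription factor, the RBPJ fold was 5.66 and the L3MBTL3 fold 9.59, values of separate lists that are not compared. In C17orf50 the RBPJ fold was 6.09 and the L3MBTL3 fold 5.94. In the first intron of DSP, which encodes the desmosomal protein desmoplakin, they were 5.25 and 4.40, with the summit 36 bp from the TSS of the antisense transcript DSP-AS1. The fifth lay in a gene with no symbol in the annotation (ENSG00000285733), with folds of 6.13 and 4.50, in sequence whose 31-base words occur a median of 5 times in the genome. It was 484 bp from a lncRNA TSS, and the CASZ1 summit was 236 bp from another CASZ1 transcript's start. Within 1 kb of an L3MBTL3 peak were 2 further intronic peaks, in ATXN1 and again in ENSG00000285733.

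**Figure D5:**
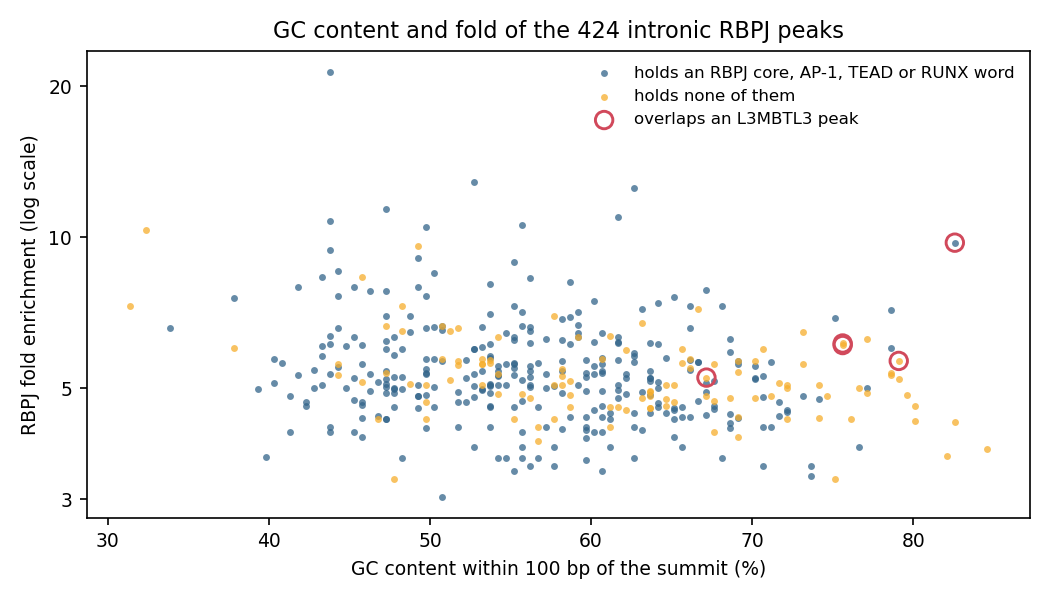
RBPJ fold enrichment (log axis) against GC content within 100 bp of the summit for each of the 424 intronic peaks, blue where the window holds a word of the 4 families and orange where it holds none, with the 5 peaks that overlap L3MBTL3 ringed. The ringed peaks lie at 67.2% GC and above, and the strongest peak, of fold 21.3, lies at 43.8%.

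Each peak was assigned to 1 host gene, and by that assignment the 424 peaks lay in 334 genes, which is 1.69% of 19820 protein-coding genes. Of the peaks, 25 (5.90%) lay inside more than 1 protein-coding gene, and their other genes are not counted as hosts for them. Host genes were long, with a median span of 102 kb against 27.0 kb for all protein-coding genes, and a long gene offers more intronic bases to the rule. Of the hosts 61 had at least 2 intronic peaks, 17 at least 3 and 8 at least 4. An RBPJ promoter peak was present at 63 hosts (18.9%, 15.03 to 23.4), beside 8.87% of all protein-coding genes, so 343 of the 424 peaks lay in a gene without one. Another RBPJ summit lay within 10 kb of 122 intronic peaks (28.8%), and within 1 kb of 72 (17.0%).

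SSH1, which encodes the cofilin phosphatase slingshot, held 4 peaks in its first 2 introns, the strongest with a fold of 7.95. KDM6B, a histone H3 lysine 27 demethylase gene of only 20.6 kb, also held 4 (folds 7.07, 4.82, 4.70 and 4.58), all 1.52 to 2.12 kb from a TSS. MICAL2, an actin-oxidizing enzyme, BCAR3, an adhesion adaptor, TRERF1, a transcriptional regulator, PLEC, the cytolinker plectin, and ENSG00000283782 held 4 each. The peaks of MICAL2, BCAR3, TRERF1 and ENSG00000283782 held no AP-1 word.

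The Notch genes with an intronic peak included core members. The lists were chosen with earlier results of these data known, and their counts are read against the 1.69% of all genes. Of 26 Notch target genes, with a median span of 12.1 kb, 4 were hosts (15.4%), a share that was not tested. The HES1 peak (fold 6.87, chr3:193854765-193855048, in the last of 3 introns) and the NOTCH1 peak (5.58, in the first of 33 introns) each held CGTGGGAA, as shown above. CDKN1A, a cell cycle inhibitor, had a peak of fold 5.16 with an RBPJ core word. CCND1, cyclin D1, had one of fold 4.36 without any of the 4 families. HES1, NOTCH1 and CDKN1A also had an RBPJ peak at a promoter, and CCND1 did not. All 4 peaks were 1.02 to 2.27 kb from a TSS.

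Of 37 Notch pathway components, with a median span of 42.0 kb, 4 were hosts (10.8%, not tested), NOTCH1 among them. The NOTCH4 peak (fold 5.68, chr6:32164237-32164438) lay in intron 28 of 29, 1.03 kb from the TSS of the neighbouring gene GPSM3, over CGTGGGAA. MAML2, a Mastermind coactivator, had a peak of fold 6.01 in its first intron, 129 kb from a TSS, with none of the 4 families. NEURL1, a ubiquitin ligase that acts on Notch ligands, had one of fold 5.72 with RBPJ core and AP-1 words.

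Some genes of the factors whose words were sought were also hosts, beside 1.69% of all protein-coding genes. The lists are short, and their genes had median spans of 148 kb (RUNX), 117 kb (TEAD and Hippo) and 31.3 kb (YAP/TEAD targets). The median for all genes was 27.0 kb, and the part of gene length in these counts was not tested. RUNX1 and RUNX2, of 5 RUNX family genes, had 2 each, with folds of 5.33 and 5.31 in RUNX1 and 5.11 and 5.08 in RUNX2. Of 22 TEAD and Hippo genes, TEAD3 (2 peaks, fold up to 5.14), VGLL4 (5.79), AMOTL1 (3.995) and PTPN14 (5.52) were hosts, and both TEAD3 peaks and that of VGLL4 held a TEAD word, as 29.0% of all intronic windows did, while those of AMOTL1 and PTPN14 held none. None of the 4 peaks in RUNX1 and RUNX2 held a RUNX word. Of 24 YAP/TEAD target genes 5 were hosts: MYOF (6.45), AXL (6.33), CRIM1 (6.16), PTPN14 and ASAP1 (4.27), and the windows in MYOF, AXL and CRIM1 held a TEAD word. Among 15 genes for AP-1 subunits and relatives MAFK was the only host, with 3 peaks of fold 7.18, 5.58 and 4.97.

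Of 39 actin and focal adhesion genes 9 were hosts (23.1%). ITGA3, an integrin subunit, had 2 of the stronger peaks (7.60 and 7.39), both with an RBPJ core word. BCAR1 (5.98), FLNA (5.34), MYH9 (5.31), SVIL (5.08), LASP1 (5.05), MYO9B (4.84), ITGB1 (4.33) and ACTN1 (3.81) followed, with the fold of the strongest peak of each. The median span of the listed actin and adhesion genes was 119 kb, against 27.0 kb for all genes. Of 34 receptor kinase and MAPK genes, with a median span of 98.2 kb, 5 were hosts. They were AXL, EGFR (2 peaks, up to 5.65), INSR (2, up to 5.30), EPHA2 (5.25) and EPHB2 (4.33). LTBP1 (4.83) was the only host of 25 TGF-beta genes, ADAM12 (6.23) of 27 mesenchymal and matrix genes and MLPH (4.58) of 19 luminal genes. None of 15 NF-kB pathway genes and none of 20 olfactory receptor genes was a host.

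The density of intronic peaks was uneven, from 0.0209 per Mb of fitting sequence on chromosome X and 0.0325 on chromosome 13 to 1.37 on chromosome 19. Chromosomes 13 and 15 held 1 and 3 intronic peaks, and 13 and 12 RBPJ peaks of any class. RBPJ peaks of any class were also uneven. Chromosome 19 held 235, of which 35 were intronic, chromosome X 31, of which 1 was, and chromosome 22 only 10, of which 6 were. The copy number of the chromosomes in these cells is not given by the peak lists, and its part in these densities was not tested.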

How the data were processed

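ChIP-seq of RBPJ and L3MBTL3 was done in MDA-MB-231 cells, 1 library each. Per the labels' protocols, Trimmomatic removed adaptors from single-end reads of 50 cycles and BWA 0.7.15 placed them on hg19, at 30 to 40 M (mega) reads per library, and per the submitters' processing notes MACS2 was used. The sources used here do not give its version, cutoff or control. The deposited columns hold the score (10 times the -log10 q), the fold (a ratio) at the summit, the -log10 p and -log10 q, and the summit's offset. Replicates were not pooled, since each list comes from 1 library.

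Summits were placed with GENCODE 44 on GRCh37 (78577 protein-coding TSS) and words counted in the reference sequence, with Python 3.11.15, numpy 2.4.6, scipy 1.17.1, pysam 0.24.0 and matplotlib 3.10.9. Introns were numbered in the canonical transcript, otherwise in the longest one with the summit in an intron. Tests were two-sided Fisher's exact tests with Woolf intervals (0.5 added where a count was 0) and Benjamini-Hochberg adjustment over 36 word tests and over 2 L3MBTL3 tests, at a threshold of 0.05. Shares have 95% Wilson intervals. A window was repeated where its 31-base words had a median of 2 or more copies in the genome. Limits on a count of 0 are 3 counts of the total. The code was tested on simulated data. The members, words and gene lists were chosen with earlier results of these data known. Named peaks were the 15 strongest, those overlapping L3MBTL3, the 10 strongest with at least 3 word families, the 8 genes with most peaks and the strongest peak of each listed host. Other named peaks were chosen after their values were seen. No sequence from chromosome 8 is printed. Some genes and lists that the rule covers are not reported here.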

Additional observations from a re-analysis of the deposited data

How the results depend on the processing

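Each alternative was set against the odds ratio, share or count reported above. Listed at the outset were windows reaching 50 or 250 bp to either side of the summit, in place of 100 bp. A -log10 q of at least 5 and other TSS distances and flanks were also listed then. Alternatives chosen after seeing the data left out repeated sequence or peaks near any TSS, or kept 50 to 65% GC or CpG-rich peaks. The AP-1 and TEAD words against flanks and promoter peaks, and both RBPJ words against flanks, kept direction and call under every alternative run. The word shares split by CpG content were not among the alternatives tested. Against promoter peaks the high-affinity word lost its call at the stricter q (1.97) and in the GC range (1.04), the core word in the GC range (1.38), and RUNX changed direction there (0.768). Against intergenic peaks, the high-affinity word changed direction at the stricter q (0.770) and at 2000 bp from a TSS (0.988). The core word did so at the stricter q (0.823) and in the GC range (0.886), and passed at 250 bp (1.59), as AP-1 did (1.55). TEAD lost its call there at 50 bp (1.16), at the stricter q (1.16), without repeats (1.36) and in the GC range (1.65). RUNX changed direction against flanks at 50 bp (0.898), and against intergenic peaks at 250 bp (1.01), at the stricter q (1.56) and without peaks near any TSS (1.15). The L3MBTL3 overlap against promoter peaks lost its call with the stricter q in both lists (0.147, exact adjusted p = 0.0703) and changed direction in CpG-rich peaks (1.14). Against intergenic peaks it passed without peaks near any TSS (0.205). The stricter q left 116 intronic peaks, which lowers power, with a median fold of 6.61. The first-intron share was 39.9% with the lowest intron number and 27.1% at 2000 bp from a TSS. Windows with AP-1 and TEAD words numbered 12 at 50 bp, 83 at 250 bp and 6 at the stricter q. The causes of these changes were not tested. Alternatives based on masked sequence were not run, because the reference used has no masked letters. Libraries could not be paired because each antibody has 1. A comparison of each peak with its own flanks was possible but was not run. The unknown read count behind each peak limits what a single fold can show.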
